A study of Homo sapiens with 24 samples.

Results

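HCT116, an established human colorectal carcinoma line, was sequenced as wild type in 2 sets of libraries, and the difference between these sets is described here. One set holds the titles WT-1A, WT-2A and WT-3A (WT A) and the other 1B_WT_S12, 2B_WT_S13 and 3B_WT_S14 (WT B), so that 6 of the 24 libraries of the series were compared. These 6 libraries were chosen by title alone. The 60641 gene symbols listed in the tables of all libraries of the series entered, and 27280 of them passed a filter on low counts. A further 3 symbols, listed only in the tables numbered 1A to 3A, did not enter. The labels give all 6 the tissue colon, the genotype wild type and no agent, and they do not say what A and B stand for. The series was made to compare cells before and after CRISPR/Cas9 removal of the DNA-binding domain (DBD) of long noncoding RNAs in HCT116 and in A549, a lung adenocarcinoma line, and neither wild-type set carries such a deletion. The labels do not say whether the 3 libraries of a set came from separate cultures, so each p-value measures only the spread between these libraries, which may be technical.

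Cultured cells read their surroundings through a small number of transcriptional programs. When amino acids run short or proteins misfold, the translation factor eIF2alpha is phosphorylated and ATF4 drives genes of amino acid synthesis and uptake, whereas unfolded protein in the cytosol releases HSF1, which drives the heat shock chaperones. Serum and stretch induce immediate early genes such as FOS and JUN within minutes, and spread cells at low density keep YAP in the nucleus, where it drives CCN1 and CCN2 through TEAD factors. HCT116 carries an activated beta-catenin, so that Wnt targets are on without added ligand.

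The libraries were deep and the WT A libraries differed more among themselves than the WT B libraries did. Total counts were 52435049 to 64167879 in WT B and 49084111 to 102261808 in WT A. Among the 15623 genes used to compare spread, counts scaled to a common library total (CPM) ranged over more than 2-fold between the libraries of WT A for 2391 genes (15.3%) and between those of WT B for 553 genes (3.54%). In the libraries of the 2 HCT116 DBD knockouts (DBD KO) that are set beside the wild types below, 595 genes (MSTRG.4401.1 KO) and 570 genes (MSTRG.34636.7 KO) did so. No WT A library stood alone in this, since 1A lay more than 2-fold from the mean of the other WT A libraries for 1000 genes, 2A for 888 and 3A for 645.

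**Figure D1:**
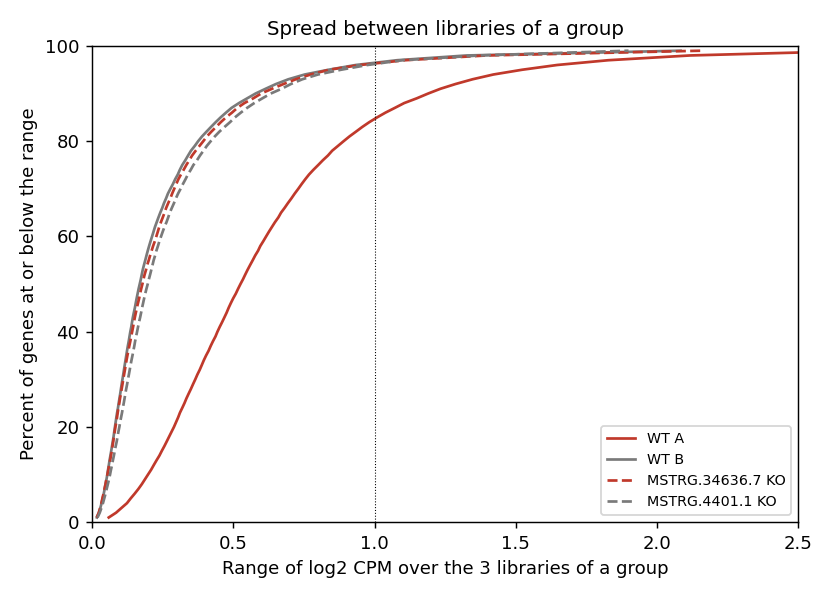
Cumulative percent of 15623 genes (y axis) against the range of log2 CPM over the 3 libraries of a group (x axis), 1 line for each group, with a dotted line at a range of 2-fold. The line of WT A lies to the right of the others, with a median range of 0.53 against 0.17 in WT B.

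The 6 libraries had similar sums of colon and of A549 markers, although single markers differed. EPCAM, the epithelial adhesion molecule, lay between 147 and 247 CPM, and the 22 markers of colon epithelium summed to between 3010 and 4581 CPM, although 11 of them, LGR5 among them, were at or under 1 CPM throughout. The same sum was 4023 to 4391 CPM in the A549 wild-type libraries, so it does not tell the lines apart. The 20 markers of A549 and alveolar cells summed to between 69.3 and 84.4 CPM, against 14170 to 15634 CPM in those of A549. At FDR < 0.1, 1 of 14 colon markers tested (7.14%) was lower in WT A, AXIN2, and none was higher. Of 13 A549 and alveolar markers tested 1 was higher and 1, AKR1B10, was lower (7.69% each). The fibroblast markers summed to 63.9 CPM in 2A and to between 33.4 and 39.1 CPM in the other libraries. Median log2(fold change) by chromosome lay between -0.12 and 0.13 over the autosomes and was 0.04 on X. It was -0.45 over 32 genes of the mitochondrial genome and 0.61 over 7 genes of Y. None of 290 windows, the mitochondrial genome counted as 1 of them and the others 10 Mb long, had a median beyond 0.5 either way.

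Of 27280 genes tested, 1926 (7.06%) were called between the wild-type sets at FDR < 0.1 and |log2(fold change)| > 1 (edgeR's quasi-likelihood test, Benjamini-Hochberg adjustment), 861 (3.16%) higher and 1065 (3.90%) lower in WT A. At FDR < 0.1 without the limit on fold change, 3348 (12.3%) passed, 1517 (5.56%) higher and 1831 (6.71%) lower, and these shares are the background for the program counts below, where rose and fell mean that a gene passed FDR < 0.1. The program lists were written with earlier results of these data known, so their counts are descriptions, and no set test was run. The median log2(fold change) of all genes was 0.03. The count at FDR < 0.1 rested on all 3 WT B libraries, since it was 1895, 1871 and 1862 without 1B, 2B and 3B. A second difference between the same file numberings exists in the series. MSTRG.34636.7 KO is numbered 1A to 3A as WT A is, and MSTRG.4401.1 KO carries S numbers (S10, S15, S16) as WT B does. This KO pair shares no library with the wild types, but it differs by its deletions as well as by its numbering, which cannot be told apart within it. In the KO pair (MSTRG.34636.7 KO against MSTRG.4401.1 KO) 4573 of 27521 genes (16.6%) were called, 2372 (8.62%) higher and 2201 (8.0%) lower, and 13382 (48.6%) passed FDR < 0.1, 6809 (24.7%) higher and 6573 (23.9%) lower. Its values are given beside those of the wild types, and the difference between both differences was tested as an interaction over 12 libraries (FDR < 0.1 for 1796 of 29504 genes, 6.09%).

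Programs of stress differed most clearly in the integrated stress response, whose genes were higher in WT A. Of 35 members tested, 14 rose and 1 fell, and the median log2(fold change) was 0.79 against 0.03 over all genes. Those that rose include the effectors of amino acid supply ASNS, PHGDH, PSAT1, PCK2 and SLC7A11 and the proapoptotic branch DDIT3, TRIB3 and CHAC1. The heat shock list moved the other way, with 7 of 25 members lower, none higher and a median of -0.30.

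ASNS, which makes asparagine from aspartate and lies at chr7:97851677-97872542 on the minus strand (GRCh38), was at 76.1, 66.2 and 72.9 CPM in WT B and at 286, 113 and 224 CPM in WT A. These groups did not overlap, and the log2(fold change) was 1.53 (SE 0.31, adjusted p = 0.0204). CHAC1, a glutathione-degrading enzyme at chr15:40952962-40956512, was at 4.65, 3.82 and 4.52 CPM in WT B and at 56.2, 20.5 and 11.8 CPM in WT A, a log2(fold change) of 2.75 (SE 0.52, adjusted p = 0.0147). DDIT3, the transcription factor CHOP, was at 5.97, 5.77 and 6.85 CPM in WT B and at 52.2, 17.7 and 11.2 CPM in WT A (log2(fold change) 2.11, adjusted p = 0.0429). TRIB3, a pseudokinase that ATF4 induces, went from 50.7, 41.4 and 45.6 CPM to 453, 104 and 95.8 CPM (2.24, adjusted p = 0.0522). In CHAC1, DDIT3 and TRIB3 the library 1A was the highest of the 6, and the other WT A libraries still lay above every WT B library. ATF4 itself, whose protein is controlled mainly by translation, changed less, from 264, 264 and 272 CPM to 479, 376 and 365 CPM (0.60, adjusted p = 0.042). VLDLR, a lipoprotein receptor and the only member that fell, was at 3.09, 2.6 and 2.28 CPM in WT B and at 0.94, 1.47 and 0.89 CPM in WT A (-1.30, adjusted p = 0.0219).

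The score of the list in a library, the median over its members of log2 CPM minus the gene's mean over the 6 libraries, was -0.34, -0.31 and -0.40 in WT B and 1.13, 0.03 and 0.09 in WT A. The WT A scores thus lay above all WT B scores, with 1A far above 2A and 3A. Without 1A the median was 0.35 with 13 members higher, and without 1 library of WT B (1B, 2B or 3B) 6, 5 and 6 members rose. ASNS, CHAC1, PCK2 and PHGDH passed whichever library was left out, whereas DDIT3, TRIB3, SLC7A11, PSAT1 and ATF4 did not pass without any one WT B library. The KO pair gave the list the same median, 0.79, with 27 of 34 higher and 3 lower, and 12 of the 14 genes were higher in both. ATF3, a stress-induced repressor, was an exception. It was at 17.6, 16 and 15.9 CPM in WT B and at 53.8, 25.8 and 34.2 CPM in WT A (1.19, SE 0.26), against 0.04 (SE 0.10) in the KO pair, and both differences differed by 1.16 (SE 0.30, adjusted p = 0.0601).

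The promoters of ASNS and CHAC1 are shown because they hold the letters TGATGNAA, the core of the element that ATF4 binds, searched on both strands. The 250 bases before a RefSeq start are given 5′ to 3′ on the gene's strand (GRCh38.p14), with the match in capitals. That of ASNS lies at chr7:97872409-97872658 on the minus strand, and that of CHAC1 at chr15:40953221-40953470 on the plus strand, where the match reads on the other strand. RefSeq gives ASNS a second start, whose window at chr7:97872116-97872415 holds no match.
ASNS: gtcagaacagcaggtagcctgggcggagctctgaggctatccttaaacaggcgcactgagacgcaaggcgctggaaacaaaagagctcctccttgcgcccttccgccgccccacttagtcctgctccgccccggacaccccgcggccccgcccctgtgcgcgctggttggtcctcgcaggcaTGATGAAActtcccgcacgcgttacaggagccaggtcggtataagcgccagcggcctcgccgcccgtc
CHAC1: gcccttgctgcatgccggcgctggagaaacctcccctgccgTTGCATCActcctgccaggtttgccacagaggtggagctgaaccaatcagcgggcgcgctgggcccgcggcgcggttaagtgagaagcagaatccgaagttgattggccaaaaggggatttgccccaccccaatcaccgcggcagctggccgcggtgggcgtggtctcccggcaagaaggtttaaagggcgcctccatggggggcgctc
In windows from 250 bases before to 50 after a start, with a gene counted if any of its windows matched, 9 of the 30 members with a RefSeq promoter (30.0%) held these letters, against 4.46% of all 27305 genes, and 4 of the 12 such members that rose did. A match is a description of the letters only.

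HSPA1A, the inducible HSP70 at chr6:31815543-31817946, showed the largest change of the heat shock list. It was at 121, 119 and 113 CPM in WT B and at 2.18, 5.3 and 0.89 CPM in WT A (log2(fold change) -5.47, SE 0.57, adjusted p = 0.000679). Its near-identical neighbour HSPA1B, at chr6:31827738-31830254, was at 226, 221 and 217 CPM in WT B and at 136, 86.7 and 229 CPM in WT A, which overlapped (-0.55, SE 0.33, adjusted p = 0.372). Reads of these copies can be split either way by an aligner, so the value of HSPA1A alone is uncertain. HSPD1, the mitochondrial chaperonin HSP60, has no such copy in the list and was at 999.7, 1015 and 1002 CPM in WT B and at 294, 337 and 289.9 CPM in WT A (-1.73, SE 0.13, adjusted p = 0.000111). HSP90AA1, the inducible HSP90, was at 2502, 2459 and 2383 CPM in WT B and at 910.1, 1926 and 1076 CPM in WT A (-0.93, adjusted p = 0.0704). The others that fell were its paralogue HSP90AB1 and the cochaperones FKBP4, CHORDC1 and HSPH1. All 7 were lower in the KO pair as well. HSPA1A, HSPD1 and FKBP4 passed whichever library was left out, and 3 members of the list passed without any one WT B library. For HSPD1 the fall in the wild types exceeded that in the KO pair (-1.26, SE 0.05) by -0.46 (SE 0.12, adjusted p = 0.0578).

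The other stress lists did not move as groups. In the unfolded protein response of the endoplasmic reticulum 1 of 25 members rose and 2 fell, with 1A alone at a score of 0.45. HSPA5, the chaperone BiP, was at 642, 632 and 618 CPM in WT B and at 2254, 579.6 and 674 CPM in WT A (0.88, SE 0.48, adjusted p = 0.329). EDEM1, a lectin-like factor of ER-associated degradation at chr3:5187646-5219958, was at 56.7, 52.3 and 53.9 CPM in WT B and at 0.714, 0.632 and 0.264 CPM in WT A (-6.74, SE 0.34, adjusted p = 1.8e-05). EDEM1 is among the symbols described below that were under 1 CPM in one set and over 10 CPM in the other. A gene on the other strand overlaps it. Among targets of NRF2, the antioxidant factor, 3 of 28 rose and 2 fell. NFE2L2, which encodes it, fell from 107, 106 and 109 CPM to 69.3, 53.3 and 49.4 CPM (-0.91, adjusted p = 0.00721). NQO1, a classical target, was at 416, 403 and 401 CPM against 397, 406 and 434 CPM (0.01, SE 0.12) in the wild types, whereas it was 0.97 (SE 0.05) in the KO pair, and these differed by -0.95 (SE 0.12, adjusted p = 0.00129).

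HCT116 has wild-type p53, and 3 of 34 p53 targets rose and 5 fell. CDKN1A, the cell cycle inhibitor p21, was at 335, 333 and 325 CPM in WT B and at 320.3, 194 and 609 CPM in WT A, and MDM2, the p53 ligase, at 453, 447 and 433 CPM and at 467, 292 and 409 CPM, so that both groups overlapped in each. TNFRSF10A, the TRAIL death receptor DR4, fell from 69.3, 63.6 and 64.7 CPM to 1.79, 2.61 and 2.32 CPM (-4.89, SE 0.18, adjusted p = 6.75e-06), while the decoy receptor TNFRSF10C rose from 4.58, 4.66 and 5.14 CPM to 18.3, 9.56 and 22.5 CPM (1.81, SE 0.32, adjusted p = 0.0104). Both moved in the same direction in the KO pair (-3.86 and 2.11). The metallothioneins, which bind zinc and copper, had the largest share of interaction genes among the stress lists. MT2A was at 116, 134 and 141 CPM in WT B and at 286, 246 and 236 CPM in WT A (0.96, SE 0.14, adjusted p = 0.00399), against -0.33 (SE 0.10) in the KO pair. In this list 2 of 7 members rose in the wild types, 5 of 7 fell in the KO pair, and 5 passed the test of the interaction.

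**Figure D2:**
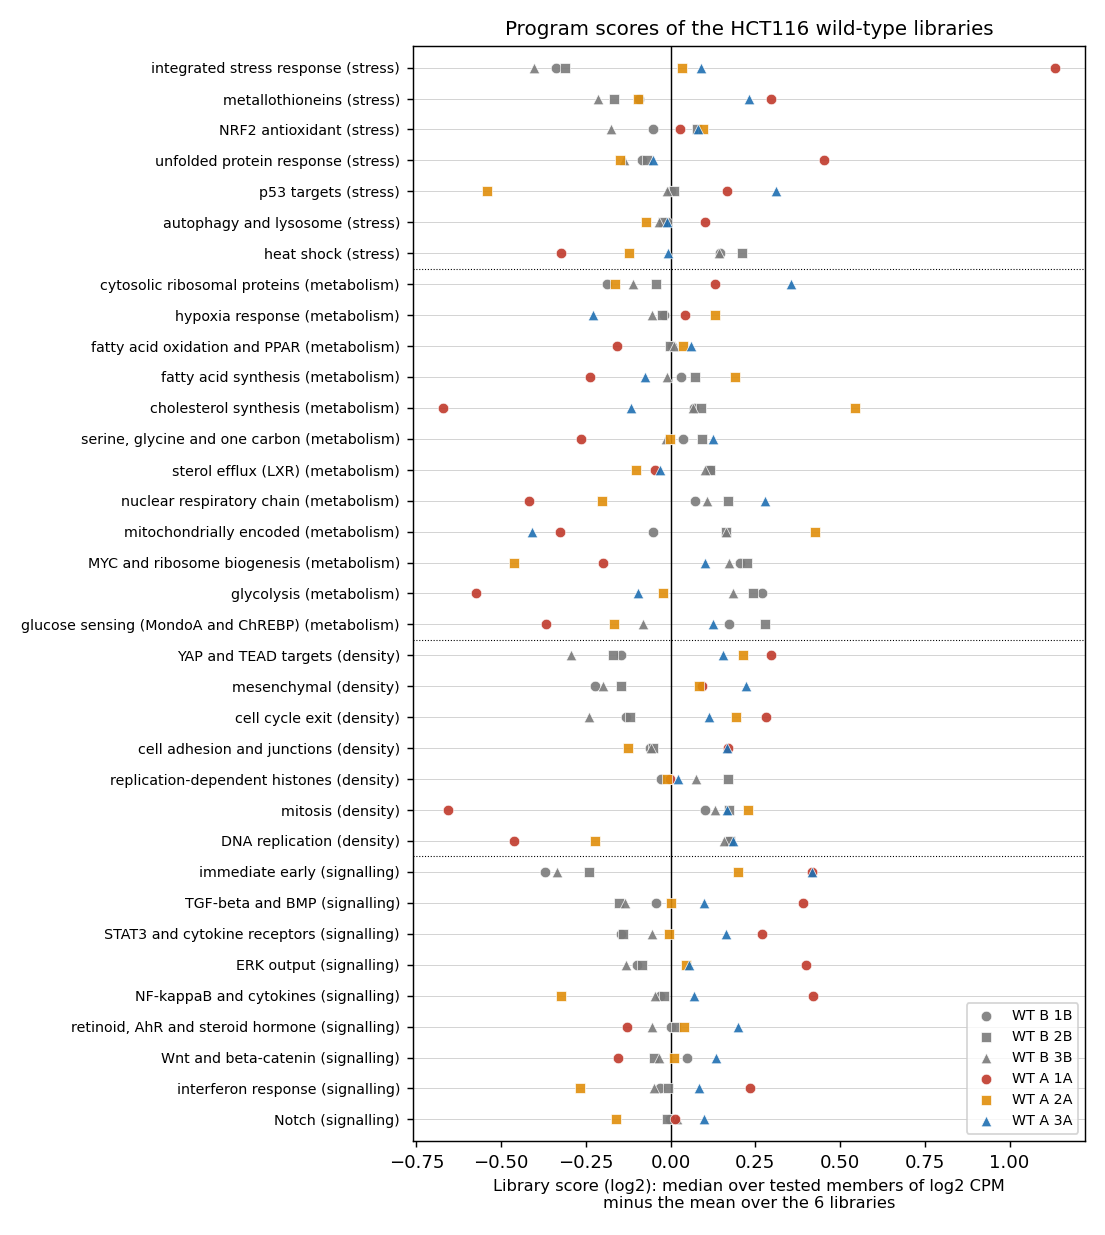
Score of each program list in each wild-type library (x axis, log2; the median over the tested members of log2 CPM minus the gene's mean over the 6 libraries), grouped by stress, metabolism, density and signalling, with grey symbols for WT B and coloured symbols for WT A. The scores of the integrated stress response (WT A 0.03 to 1.13, WT B -0.40 to -0.31) and of the immediate early genes (WT A 0.20 to 0.42, WT B -0.37 to -0.24) do not overlap, while cholesterol synthesis spreads from -0.67 in 1A to 0.55 in 2A.

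Programs of metabolism differed in glycolysis and in ribosome production. Of 23 glycolytic genes 5 fell, none rose and the median was -0.43, and of 29 MYC and ribosome biogenesis genes 5 fell, none rose and the median was -0.39. Of 78 cytosolic ribosomal protein genes 6 rose (7.69%, near the background of 5.56%) and none fell. Their median was 0.20 (0.095 to 0.32 when 1 library was left out), and the score of 2A (-0.16) lay within the range of WT B (-0.19 to -0.043). Hypoxia, cholesterol, fatty acid and respiratory chain lists had medians between -0.19 and 0.02.

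LDHA, which turns pyruvate into lactate, was at 1139, 1134 and 1128 CPM in WT B and at 362, 799 and 631 CPM in WT A (log2(fold change) -0.94, SE 0.26, adjusted p = 0.0666). SLC16A3, the lactate exporter MCT4, was at 457, 418 and 431 CPM in WT B and at 191, 265 and 211 CPM in WT A (-0.98, SE 0.14, adjusted p = 0.0039). The groups overlapped in neither. PGAM1 (-0.82), HK2 (-0.63) and LDHB (-0.48) also fell, the first a mutase and the second the entry kinase of the pathway. Without any one WT B library only 1 of the 23 genes passed, and without 2A 10 did. In the KO pair 13 fell and 5 rose (median -0.15), and all 5 genes named fell there too. SLC2A1, the glucose transporter GLUT1, was at 459, 426 and 427 CPM against 375, 199 and 249.9 CPM and did not pass (adjusted p = 0.125).

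MLXIP, the glucose sensor MondoA, was at 189, 171 and 187 CPM in WT B and at 45.6, 69.6 and 35.2 CPM in WT A (-1.88, SE 0.22, adjusted p = 0.00115). Its relative MLXIPL, ChREBP, fell too, from 80, 71.2 and 74.9 CPM to 30.5, 51.6 and 27.3 CPM (-1.07, adjusted p = 0.019). TXNIP, the best known target of both, had too few counts in all 6 libraries to be tested. NOLC1, a nucleolar phosphoprotein, was at 298, 324 and 313 CPM in WT B and at 113, 134 and 169 CPM in WT A (-1.18, SE 0.18, adjusted p = 0.00478), while MYC itself was at 332, 326 and 299.9 CPM and at 272, 269 and 336 CPM, which overlapped (-0.14, adjusted p = 0.656). RPL6 and RPS27, proteins of the large and small subunit, rose (1.19 and 1.20, adjusted p = 0.00658 and 0.00567). In the KO pair 62 of 78 ribosomal protein genes rose and 21 of 29 MYC and ribosome biogenesis genes fell. Counts within the wild types moved with single libraries, with 31 ribosomal protein genes higher without 2A and 15 biogenesis genes lower without 3A, but only 2 lower without any one WT B library.

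Lipid genes showed few changes and wide scatter within WT A. No gene of 27 in cholesterol synthesis passed at FDR < 0.1. HMGCS1, which commits acetyl units to sterols, was at 80.7, 85.9 and 78.8 CPM in WT B and at 52.7, 208 and 80.8 CPM in WT A. The library 2A was the highest of the 6 and 1A the lowest. Without 2A, 8 genes of the list fell and the median was -0.47, and in the KO pair 21 of 27 fell and 3 rose. Single enzymes did differ. ELOVL5, an elongase of polyunsaturated fatty acids, fell from 81.7, 82 and 86.6 CPM to 24.3, 16.3 and 14.8 CPM (-2.19, SE 0.20, adjusted p = 0.000303), and FADS1, a desaturase of the same route, rose from 45.6, 44.5 and 50.4 CPM to 121, 164 and 137 CPM (1.57, SE 0.14, adjusted p = 0.000279). ACACB, the mitochondrial acetyl-CoA carboxylase, rose from 8.77, 2.07 and 2.51 CPM to 25.3, 33.1 and 31.6 CPM (2.75, SE 0.52, adjusted p = 0.0137). MTHFD1L, of mitochondrial one-carbon metabolism, fell from 167, 160.5 and 170.0 CPM to 57.9, 24.5 and 55.3 CPM (-1.85, SE 0.31, adjusted p = 0.0084), although PHGDH and PSAT1 of serine synthesis rose. Each of these moved in the same direction in the KO pair (-1.60, 1.52, 3.26 and -2.10).

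Of 33 hypoxia targets 2 rose and 2 fell (6.06% each), close to the background shares. NDRG1, a differentiation-related target, was at 111, 113 and 106 CPM in WT B and at 253, 296 and 139.8 CPM in WT A (1.04, adjusted p = 0.0315). VEGFA, the angiogenic factor, was at 96.9, 91.1 and 89.6 CPM and at 237, 127 and 84.4 CPM, which overlapped. ANGPTL4, an inhibitor of lipoprotein lipase, fell from 27.1, 25.2 and 25.9 CPM to 15.2, 15.4 and 11.7 CPM (-0.90, SE 0.14, adjusted p = 0.00609), whereas it was 0.70 (SE 0.13) in the KO pair, a difference of -1.59 (SE 0.19, adjusted p = 0.00098). In the KO pair 22 of 32 hypoxia genes rose.

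Programs tied to density and growth showed higher YAP and TEAD targets and higher genes of cell cycle exit in WT A, while few proliferation genes passed. Of 27 YAP and TEAD targets 10 rose and 1 fell (median 0.38), and of 28 cell cycle exit genes 9 rose and none fell (median 0.35). Of 39 DNA replication genes 2 fell (median -0.32, 6 genes above 0). Of 36 mitotic genes 3 fell and 1 rose (median -0.23, 12 genes above 0). Of 40 replication-dependent histone genes 4 fell and 3 rose (median -0.17). The scores of WT A and WT B overlapped in each of these proliferation lists.

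CCN1, a matricellular protein and an early YAP target, was at 11.4, 11.2 and 10.9 CPM in WT B and at 36.6, 30.8 and 39.1 CPM in WT A (log2(fold change) 1.66, SE 0.15, adjusted p = 0.000346). CCN2, its relative, at chr6:131948176-131951372, was at 1.89, 2.96 and 1.88 CPM in WT B and at 7.2, 6.93 and 4.66 CPM in WT A (1.46, SE 0.28, adjusted p = 0.0148). In both genes the groups were apart and the 3 WT A libraries close together. TEAD4, a DNA-binding partner of YAP, rose (1.10, adjusted p = 0.0123), as did NT5E, the ecto-nucleotidase CD73 (1.10, adjusted p = 0.0158). WWTR1, the YAP paralogue TAZ, fell from 68, 69.2 and 61.5 CPM to 37, 40.9 and 35.2 CPM (-0.83, SE 0.12, adjusted p = 0.00337). CCN1 and CCN2 differed between the wild types by more than in the KO pair (0.45 and -0.30), by 1.22 (SE 0.19, adjusted p = 0.00443) and 1.77 (SE 0.34, adjusted p = 0.0175). Over the list the KO pair had 10 higher, 6 lower and a median of 0.08. Without any one WT B library 5 targets rose, and CCN1, CCN2, TEAD4 and NT5E passed whichever library was left out.

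The promoter of CCN2 is shown because GGAATG, the core letters bound by TEAD factors, occurs in it 3 times. The 250 bases before its start lie at chr6:131951373-131951622 on the minus strand (RefSeq, GRCh38.p14), with the matches in capitals.
CCN2: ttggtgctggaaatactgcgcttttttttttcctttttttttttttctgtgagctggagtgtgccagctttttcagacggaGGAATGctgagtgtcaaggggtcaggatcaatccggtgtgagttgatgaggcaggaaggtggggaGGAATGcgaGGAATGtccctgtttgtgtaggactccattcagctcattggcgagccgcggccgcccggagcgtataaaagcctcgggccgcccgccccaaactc
On either strand and in the same windows as above, 12 of the 21 YAP and TEAD targets with a RefSeq promoter (57.1%) held these letters, against 16.7% of all genes, and 2 of the 6 such targets that rose did. The list is one of TEAD targets, so a share above that of all genes says nothing about WT A against WT B. As above, a match is a description of the letters only.

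KLHL24, an adaptor of a ubiquitin ligase that rises in resting cells, was at 14.9, 15.1 and 16.7 CPM in WT B and at 59.1, 47.4 and 27 CPM in WT A (1.50, SE 0.25, adjusted p = 0.00846). KLF9, a repressor that glucocorticoids and quiescence induce, went from 14.5, 14.3 and 13.7 CPM to 44.4, 28.8 and 22.6 CPM (1.16, SE 0.23, adjusted p = 0.0191). YPEL5 and IRS2 rose as well, by 1.05 and 1.02. All 9 genes that rose were higher in the KO pair, where 21 of 28 rose and 3 fell, and 3 or 4 of them passed without any one WT B library. MKI67, the proliferation antigen Ki-67, was at 623, 649 and 612 CPM in WT B and at 318, 827 and 680.0 CPM in WT A, so that WT A held both the lowest and the highest value (-0.06, SE 0.30). MCM2, a subunit of the replicative helicase, was at 341, 312 and 314 CPM and at 212, 231 and 277 CPM and did not pass (-0.43, SE 0.15, adjusted p = 0.132). CCNB1, the mitotic cyclin, fell from 190.0, 206 and 199 CPM to 62.7, 149 and 115 CPM (-0.88, adjusted p = 0.095), and CDC20, which starts anaphase, from 295, 287 and 289 CPM to 113, 192 and 189 CPM (-0.83, adjusted p = 0.0442). Neither passed without any one WT B library.

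The replication and histone genes set the wild types apart from the KO pair. In the KO pair 37 of 39 DNA replication genes fell (median -1.05, against -0.32 in the wild types) and 39 of 43 histone genes fell (median -1.55 against -0.17), and the interaction passed for 21 of 39 and 34 of 44 genes, against the background of 6.09%. H3C1, a histone H3 gene, was -0.73 (SE 0.16) in the wild types and -2.09 (SE 0.07) in the KO pair, a difference of 1.37 (SE 0.18, adjusted p = 0.00181). Without 3A, 23 replication genes fell in the wild types.

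Adhesion genes fell and rose in equal number, 4 of 34 each. F11R, the tight junction molecule JAM-A at chr1:160995211-161021343, was at 178, 164 and 151 CPM in WT B and at 23, 18.8 and 9.13 CPM in WT A (-3.30, SE 0.31, adjusted p = 0.000366). TJP1, the junction scaffold ZO-1, rose from 112, 46.3 and 78.1 CPM to 261, 178 and 158 CPM (1.33, SE 0.31, adjusted p = 0.0384). CDH1, E-cadherin, was at 98.6, 105 and 96.6 CPM and at 223, 102 and 109 CPM, which overlapped. Of 25 mesenchymal genes 6 rose and 2 fell, with a median of 0.36. Their scores did not overlap (WT A 0.085 to 0.22, WT B -0.22 to -0.15). Without 1B, 2B and 3B 1, 3 and 1 of them rose. In the KO pair 10 rose and 6 fell. ACTA2 rose (1.78, SE 0.36, adjusted p = 0.019) but stayed under 5 CPM in all 6 libraries. CALD1, an actin-binding caldesmon, fell from 66.8, 60.2 and 70.6 CPM to 15.9, 11.6 and 17.4 CPM (-2.14, SE 0.19, adjusted p = 0.000296), and its fall in the KO pair was larger (-6.63, SE 0.69), by 4.50 (SE 0.69, adjusted p = 0.00451). VIM, vimentin, stayed under 5 CPM in all 6 libraries.

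Programs of signalling differed in the immediate early genes, of which 14 of 30 rose and none fell (median 0.64), and in TGF-beta and BMP genes, of which 6 of 28 rose and 1 fell (median 0.35). Some genes that rose are in more than 1 list, so the programs are not independent. The immediate early list shares ATF3 with the integrated stress response and CCN1 and GADD45B with the YAP and TEAD targets. CCN2 is in the YAP and TEAD list and in the TGF-beta and BMP list. Of 28 genes of ERK output 6 rose and none fell (median 0.18, and 0.061 without 1A). Of 27 Wnt and beta-catenin genes 2 rose and 2 fell, of 27 NF-kappaB and cytokine genes none rose and 1 fell, and of 41 interferon genes 2 rose and none fell.

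FOSB, a partner of JUN in AP-1, was at 5.38, 5.94 and 5.97 CPM in WT B and at 13.6, 35 and 71.9 CPM in WT A (log2(fold change) 2.81, SE 0.53, adjusted p = 0.0148). JUN was at 20.2, 18.1 and 17.3 CPM in WT B and at 102, 33.7 and 52.7 CPM in WT A (1.76, SE 0.37, adjusted p = 0.0225). KLF6, a zinc finger factor of the early response, was at 23.7, 17.9 and 48.2 CPM and at 136, 128 and 88.1 CPM (1.96, SE 0.35, adjusted p = 0.0115). The groups were apart in these genes, but the highest library was 3A for FOSB and 1A for JUN and KLF6. FOS was at 11.6, 13.5 and 13.6 CPM in WT B and at 9.96, 69.3 and 154 CPM in WT A, so that it overlapped through 1A while still passing (2.60, SE 0.78, adjusted p = 0.0902), and it did not pass without any one WT B library, without 2A or without 3A. EGR1, which serum induces through the same route, was at 127, 136 and 124 CPM and at 85.8, 174 and 130.1 CPM (-0.01, SE 0.23). In the KO pair 15 of the 30 genes rose and 6 fell, and 11 of the 14 rose in both. Without any one WT B library 7 or 8 passed, among them FOSB, JUN, KLF6, KLF2 and CCN1.

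Of the ERK targets, DUSP5, a nuclear ERK phosphatase, was at 96, 92.7 and 98.8 CPM in WT B and at 309, 264 and 159.8 CPM in WT A (1.33, SE 0.22, adjusted p = 0.00691). AREG, the EGF receptor ligand amphiregulin, rose from 153, 149 and 142 CPM to 388, 268 and 248 CPM (1.01, SE 0.18, adjusted p = 0.011), whereas the related ligand EREG was at 934, 914 and 928 CPM and at 1271, 969.9 and 437 CPM, which overlapped. FOSL1, the AP-1 protein FRA1, was at 31.6, 31.3 and 28.8 CPM and at 61.9, 50 and 70.3 CPM (0.98, SE 0.17, adjusted p = 0.00866), against -0.51 (SE 0.10) in the KO pair, a difference of 1.51 (SE 0.20, adjusted p = 0.00195). For DUSP6, the cytosolic ERK phosphatase, the KO pair differed more (1.53) than the wild types did (0.68), by -0.84 (SE 0.20, adjusted p = 0.0461).

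The TGF-beta pathway signals through a type II receptor to SMAD proteins, and the BMP branch induces ID genes and the inhibitor SMAD6. TGFBR2, the type II receptor gene at chr3:30606601-30694142, was at 110.4, 106 and 110.3 CPM in WT B and at 15.6, 13.8 and 13.3 CPM in WT A (-2.95, SE 0.13, adjusted p = 1.06e-05). SMAD6, at chr15:66702236-66782849, was at 0.858, 0.701 and 0.549 CPM in WT B and at 19.3, 25.8 and 20.1 CPM in WT A (4.94, SE 0.24, adjusted p = 1.48e-05). ID1, an inhibitor of bHLH factors, was at 144, 61.9 and 61.8 CPM and at 364, 616 and 396 CPM (2.35, SE 0.36, adjusted p = 0.00518). TGFBR2 was thus lower and SMAD6 and ID1 higher, each without overlap, and in the KO pair TGFBR2 was at -2.02, SMAD6 at 4.22 and ID1 at 2.66. SMAD6 is among the symbols described below that were under 1 CPM in one set and over 10 CPM in the other. Another gene overlaps it on the same strand, so its value is uncertain. The fall of TGFBR2 was larger in the wild types by -0.92 (SE 0.15, adjusted p = 0.00586).

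AXIN2, a negative regulator that beta-catenin induces, at chr17:65528563-65561648, was at 33.7, 32.8 and 30.4 CPM in WT B and at 8.37, 8.27 and 6.04 CPM in WT A (-2.11, SE 0.16, adjusted p = 0.00013). RNF43, the ligase that removes Wnt receptors, was at 182, 169 and 174 CPM and at 29, 25.4 and 15.6 CPM (-2.92, SE 0.22, adjusted p = 0.000116), and its fall exceeded that of the KO pair by -1.45 (SE 0.23, adjusted p = 0.00605). CD44, an adhesion receptor and target, rose (0.85, adjusted p = 0.0371). DKK1, a secreted Wnt inhibitor, was at 106, 109.8 and 108 CPM in WT B and its WT A libraries lay on both sides of these (-0.28, SE 0.67). The Wnt list as a whole had a median of 0.08. In the Notch list 3 of 22 genes rose, with the target HES1 from 6.52, 7.26 and 7.7 CPM to 25.9, 18.2 and 13.9 CPM (1.42, SE 0.23, adjusted p = 0.00758). TIPARP, a target of the aryl hydrocarbon receptor, fell from 80.2, 80.4 and 78.8 CPM to 33.5, 32.9 and 25 CPM (-1.41, SE 0.13, adjusted p = 0.000409).

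**Figure D3:**
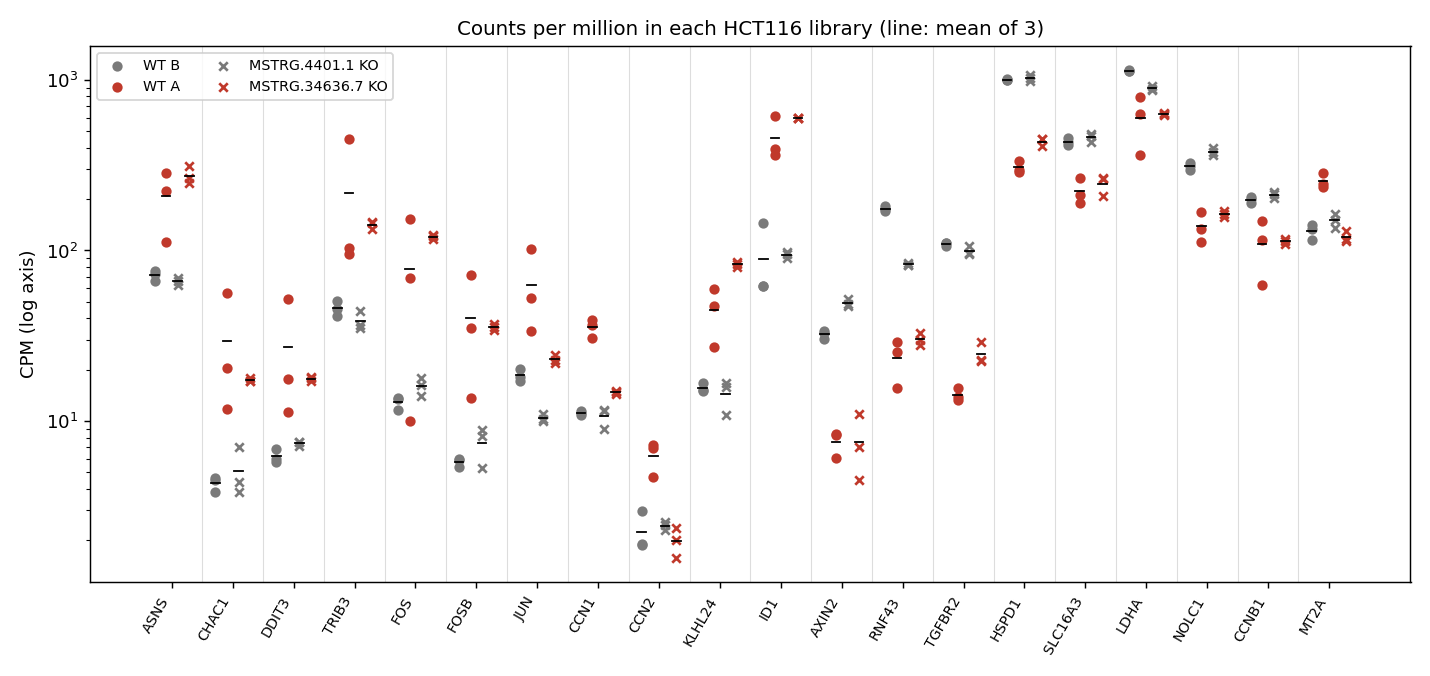
CPM (y axis, log scale) of 20 named genes in each library of WT B and WT A (circles) and of the KO pair (crosses), 1 symbol a library and a line at the mean of 3. RNF43, TGFBR2, AXIN2 and HSPD1 lie lower in every WT A library than in any WT B library, ASNS, CHAC1 and CCN1 lie higher, and FOS overlaps through 1A.

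Small and noncoding RNAs were among the largest differences. Of 231 symbols of miRNA genes tested 48 (20.8%) were called, 23 higher and 25 lower in WT A, against 7.05% of 14772 protein-coding symbols. These counts are reads of rRNA-depleted total RNA at hairpin genes, not of mature miRNA. For 5 of the hairpins described here a mature sequence is given from RefSeq (GRCh38.p14), with the seed (bases 2 to 8) in capitals. The hairpins MIR222 (chrX:45747015-45747124) and MIR221 (chrX:45746157-45746266) lie in the host transcript MIR222HG and share a seed, MIR31 (chr9:21512115-21512185) lies within MIR31HG, MIR181A1 (chr1:198859044-198859153) within MIR181A1HG and MIR21 (chr17:59841266-59841337) within VMP1.
hsa-miR-222-3p: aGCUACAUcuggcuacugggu
hsa-miR-221-3p: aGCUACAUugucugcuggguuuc
hsa-miR-31-5p: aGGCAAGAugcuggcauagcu
hsa-miR-181a-5p: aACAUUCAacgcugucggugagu
hsa-miR-21-5p: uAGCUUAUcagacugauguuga

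MIR222 was at 334, 315 and 356 CPM in WT B and had 1 count in each WT A library. MIR221 was at 2.44, 2.38 and 2.31 CPM in WT B and also had 1 count in each WT A library. Their host MIR222HG was at 48.1, 49.3 and 51.9 CPM in WT B and at 33.5, 42.3 and 22.1 CPM in WT A and did not pass (-0.63, SE 0.20, adjusted p = 0.108), so that the hairpins of one host were almost without counts while the host was not. MIR31 went the other way, from 0.0572, 0.109 and 0.0499 CPM to 312, 434 and 172 CPM (11.96, SE 0.50, adjusted p = 1.05e-05), while its host MIR31HG was at 23.6, 23.5 and 21.8 CPM in WT B and at 0.808, 4.79 and 0 CPM in WT A (adjusted p = 0.114). MIR181A1 was at 0, 0.0156 and 0.0333 CPM in WT B and at 165, 113 and 25.2 CPM in WT A, and its host MIR181A1HG overlapped, at 5.78, 5.77 and 5.49 CPM and at 3.97, 9.94 and 0.313 CPM. MIR21 was at 0.286, 0.281 and 0.216 CPM and at 20.3, 59.3 and 19.8 CPM (6.95, SE 0.54, adjusted p = 0.00014), and its host VMP1 at 245, 236 and 256 CPM and at 272, 997 and 398 CPM (1.15, SE 0.40, adjusted p = 0.14). The KO libraries divided likewise, with MIR222 at 394, 394 and 422 CPM in MSTRG.4401.1 KO and 1 count in each MSTRG.34636.7 KO library, and MIR31 at 0.0387, 0.0469 and 0.062 CPM and at 270.3, 262 and 268 CPM.

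Other small RNAs divided in the same manner. RN7SK, the RNA that holds the elongation factor P-TEFb, was at 7457, 9102 and 9384 CPM in WT B and at 17746, 20846 and 15789 CPM in WT A (1.05, SE 0.20, adjusted p = 0.0144). Of 15 spliceosomal U RNAs 5 fell and none rose, with RNU4-1 from 9.99, 18.2 and 18.8 CPM to 0.0376, 0.387 and 0.147 CPM. RNY1, a Y RNA of the Ro particle, was at 3.93, 7.01 and 5.42 CPM in WT B and without a count in WT A, at least 111-fold lower when each WT A library is set to a floor of 3 counts. These families have many near-identical copies, so the value of a single symbol is uncertain. RN7SK alone took 0.746% to 0.938% of all counts in WT B and 1.58% to 2.08% in WT A, while the other snRNA symbols together took 0.0357% to 0.0497% and 0.0181% to 0.0351%. All miRNA symbols took 0.0634% to 0.067% in WT B and 0.176% to 0.326% in WT A, and without MIR3648-2 the WT A share was 0.0648% to 0.108%, which overlapped WT B.

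In all, 24 of the 60641 symbols were under 1 CPM in every WT A library and over 10 CPM in every WT B library, and 16 the reverse. The same rule was met between the KO libraries for 20 of the 24 and for 11 of the 16. Protein-coding examples are PTRH2, a peptidyl-tRNA hydrolase of mitochondria at chr17:59674636-59707626, which was at 0.458, 0.39 and 0.366 CPM in WT B and at 64.1, 83.3 and 68.8 CPM in WT A (7.46, SE 0.19, adjusted p = 1.49e-06), and TMEM140, a membrane protein, which went from 25.3, 23 and 24.9 CPM to 0.395, 0.102 and 0.274 CPM (-6.54, SE 0.39, adjusted p = 3.63e-05). PTRH2 overlaps CLTC and VMP1 on the other strand, and CLTC, the clathrin heavy chain, rose as well (1.32, adjusted p = 0.0352). TMEM140 overlaps CYREN on the other strand, and CYREN fell as well (-2.33, adjusted p = 0.00425). Whether counting used strand is not given in the sources used here, and without it the reads of overlapping genes cannot be told apart. In the A549 wild-type libraries, whose titles also carry S numbers, 11 of the 24 symbols were over 10 CPM and 13 of the 16 under 1 CPM, as in WT B. The share of all symbols within these limits in the KO and A549 libraries is not given here, so these counts have no background.

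**Figure D4:**
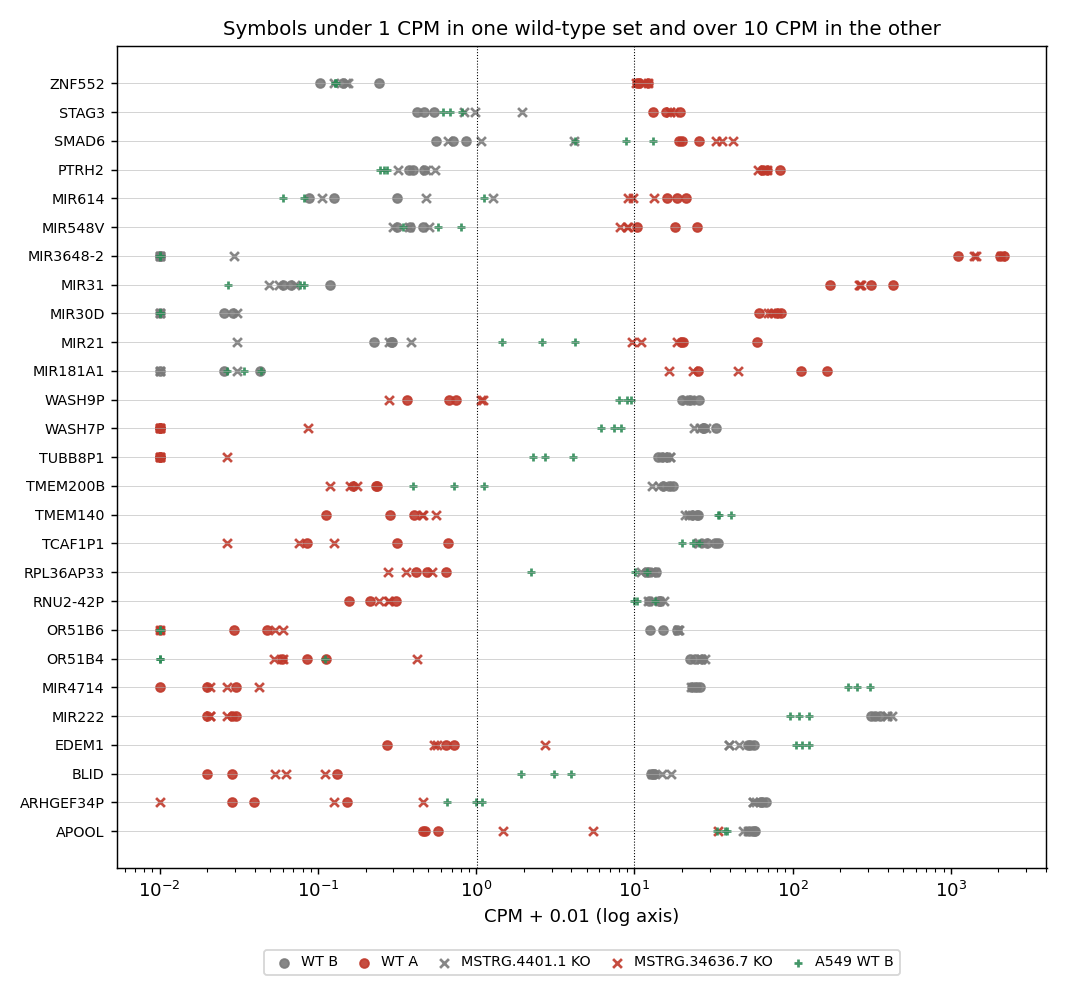
CPM + 0.01 (x axis, log scale) of the symbols with a name other than a clone name that were under 1 CPM in all libraries of one wild-type set and over 10 CPM in all of the other (dotted lines), in the HCT116 wild-type, KO and A549 wild-type libraries, 1 symbol a library. MIR222 lies at 315 to 356 CPM in WT B and near the left edge, at 1 count a library, in WT A, MIR31 lies at 172 to 434 CPM in WT A, and most KO crosses lie near the circles of the same numbering, while those of APOOL in MSTRG.34636.7 KO reach 33.8 CPM.

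Set side by side, most of the wild-type difference was also present in the KO pair. Of the 861 genes called higher 573 (66.6%) were called higher there and 4 lower, and these 573 make up 24.2% of the 2372 genes called higher in the KO pair. Of the 1065 called lower 821 (77.1%) were called lower there and 3 higher, making up 37.3% of the 2201. The share grew with the size of the difference, from 59.6% of the 1089 genes with an absolute log2(fold change) between 1 and 2 to 85.3% of 476 genes between 2 and 4, 93.2% of 237 between 4 and 8 and 95.2% of 124 above 8. The limit on fold change in the KO pair was the same throughout. A larger difference could thus shrink further and still be called, so the limit alone can give such a trend. The interaction passed for 78 of the 861 and for 91 of the 1065. Of the 26327 genes tested in both, 494 were called in the wild types and not in the KO pair, which by itself does not show that they differ between them.

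Genes whose wild-type difference did depart from the KO pair include PURPL, a p53-induced long noncoding RNA. It was at 0.286, 0.0779 and 0.965 CPM in WT B and at 6.47, 4.52 and 11.1 CPM in WT A (4.06, SE 0.76), and at -1.69 (SE 0.31) in the KO pair, a difference of 5.77 (SE 0.88, adjusted p = 0.00443). CYTOR, a long noncoding RNA tied to cytoskeleton genes, rose from 38.5, 32.3 and 36.7 CPM to 86.4, 106 and 77.2 CPM (1.31, SE 0.14, adjusted p = 0.000684), against -0.12 (SE 0.06) in the KO pair, a difference of 1.44 (SE 0.14, adjusted p = 0.000412). CMBL, a hydrolase in the p53 list, fell from 65, 60.6 and 66.1 CPM to 19.5, 14.2 and 32.1 CPM (-1.53, SE 0.29, adjusted p = 0.0146), against 0.18 (SE 0.09) in the KO pair, a difference of -1.70 (SE 0.33, adjusted p = 0.0183).

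**Figure D5:**
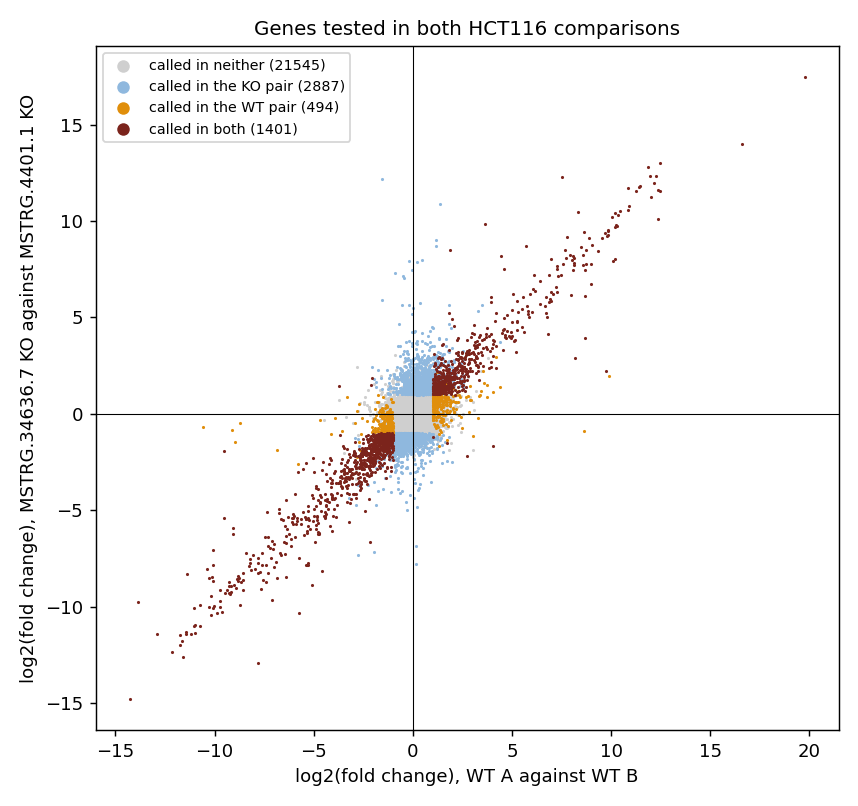
Log2(fold change) of WT A against WT B (x axis) and of MSTRG.34636.7 KO against MSTRG.4401.1 KO (y axis) for the 26327 genes tested in both, coloured by where a gene was called. The 1401 genes called in both lie mostly in the quadrants of equal sign, and 2887 were called in the KO pair only.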

How the data were processed

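Total RNA was extracted with TRIzol, depleted of rRNA and made into directional libraries that were sequenced on NovaSeq6000, per the labels. The submitters' processing notes name Trim Galore 0.6.6, FastQC 0.11.9 and HISAT2 2.2.1 with hg38. The authors deposited 1 table of whole-number read counts per gene symbol for each library. The annotation release, the use of strand and the step from alignments to counts are not given in the sources used here.

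The 3 WT A and 3 WT B libraries were compared on these deposited counts with edgeR 4.0.16 in R 4.3.3 (TMM factors, filterByExpr, quasi-likelihood test, Benjamini-Hochberg adjustment). The same fit was made for MSTRG.34636.7 KO against MSTRG.4401.1 KO, and the interaction was fitted over all 12 libraries. Adjusted p-values are from these fits, and log2(fold change) is WT A over WT B, or MSTRG.34636.7 KO over MSTRG.4401.1 KO. CPM of single genes were computed from the counts and the library totals, without TMM factors, and library scores and the spread between libraries from log2 CPM with TMM factors over the 12 libraries. The test was checked on simulated data, where the share of unchanged genes among those called was above the FDR threshold in the wild-type comparison and below it in the KO pair.

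No library pair of a set agreed within sampling noise (chi-square per degree of freedom 35.2 to 158 over genes). Each library counted as 1 replicate. Separate libraries of one culture could also differ by more than sampling noise, so these values do not show separate cultures. With 3 against 3 libraries an exact two-sided permutation test of one value cannot go below 0.1, so library scores were given without a test. Each SE was derived as the absolute log2(fold change) divided by the square root of the F statistic of the quasi-likelihood test. It thus includes the spread between libraries, whereas floors cover counting error only. The 43 program lists and their members were chosen with earlier results of these data known. Genes named are the 10 largest changes in each direction among called genes with a symbol that is no clone name, average log2 CPM of at least 1 and groups that do not overlap, up to 4 members a list with the largest absolute log2(fold change) at FDR < 0.1, and a fixed set given whatever its result. Others, such as HSPA1B, host transcripts of hairpins, overlapping genes and list members beyond 4, were named after their values were seen. Positions are from GENCODE v44 (GRCh38), which matched 98.3% of symbols that are no clone name, and sequences from RefSeq (GRCh38.p14).

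Alternatives were DESeq2 1.42.0, RLE and upper-quartile factors, library totals, no filter or at least 10 counts in every library, FDR < 0.05, each library left out, the replicate number as a block, one fit of 4 groups, and leaving out RNA classes or clone-named symbols. Some genes are not reported here.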

Additional observations from a re-analysis of the deposited data

Results flagged for a closer look

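For 25 of the genes named, the difference between the wild-type sets was not the same as the difference in the KO pair by the interaction test (edgeR's quasi-likelihood test over 12 libraries, FDR < 0.1 after Benjamini-Hochberg adjustment). Each value is the log2(fold change) of WT A against WT B minus that of MSTRG.34636.7 KO against MSTRG.4401.1 KO. Among stress genes it was 1.16 for ATF3, -1.32 for VLDLR, -0.46 for HSPD1, -0.95 for NQO1, 5.77 for PURPL, 0.69 for AEN (a p53-induced nuclease), -1.70 for CMBL, 1.30 for MT2A and 1.62 for MT1E. In metabolism it was -1.59 for ANGPTL4. Among genes tied to density and growth it was 1.22 for CCN1, 1.77 for CCN2, 0.64 for MCM2, 1.90 for the histone gene H2BC21, 1.37 for H3C1 and 4.50 for CALD1. In signalling it was 0.89 for EGR1, 0.94 for DUSP5, -0.84 for DUSP6, 1.51 for FOSL1, -0.92 for TGFBR2, -1.45 for RNF43 and -0.79 for the receptor NOTCH3. For APOOL it was -4.95 and for CYTOR 1.44. APOOL was at 5.44, 1.47 and 33.8 CPM in MSTRG.34636.7 KO, so its value rests on libraries that differ among themselves. The KO libraries also differ by their deletions, and the part of the deletions in these values was not tested.

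RNU11, the U11 RNA of the minor spliceosome, is listed only in the tables of libraries numbered 1A to 3A. It had 14, 124 and 106 counts in the WT A libraries, and, not being listed in the WT B tables, it entered no comparison.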

How the results depend on the processing

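Between 1535 and 2191 genes were called when 1 library was left out, against 1926 with all, and 73.9% to 86.8% of the 1926 remained called. DESeq2 called 2214, 1917 of them among the 1926. The count at FDR < 0.1 was less stable, at 1862 to 4501 when 1 library was left out and at 6044 when both wild-type sets and the KO libraries shared one fit. Upper-quartile factors moved the median of all genes to 0.11 and the split at FDR < 0.1 to 1971 higher and 1592 lower, against 1517 and 1831, so that small list medians depend on the scaling. Under these factors the medians were 0.11 for autophagy, -0.066 for sterol efflux (LXR), 0.46 for YAP and TEAD targets, 0.44 for cell cycle exit, -0.086 for histones and 0.42 for mesenchymal genes. With at least 10 counts in every library they were -0.087 for sterol efflux, -0.12 for glucose sensing and 0.45 for mesenchymal genes, and with no filter -0.093 for sterol efflux. The small nucleolar RNA list was also moved by that filter on counts (-0.097) and the long noncoding RNA list by upper-quartile factors (0.20). Of the list medians computed under an alternative 43 moved by more than the spread between libraries, those with 1 library left out included, and 639 by less.

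When 1 library was left out, list medians ranged from -0.43 to -0.23 for heat shock, -0.064 to 0.31 for the unfolded protein response, 0.11 to 0.32 for NRF2, 0.10 to 0.39 for metallothioneins, 0.0043 to 0.10 for autophagy, -0.18 to -0.078 for sterol efflux, -0.11 to 0.11 for fatty acid oxidation, -0.63 to -0.18 for glucose sensing, 0.27 to 0.42 for YAP and TEAD targets, 0.27 to 0.47 for cell cycle exit, -0.19 to -0.074 for histones, 0.29 to 0.44 for mesenchymal genes, 0.58 to 0.76 for immediate early genes, 0.061 to 0.27 for ERK output, -0.057 to 0.25 for interferon genes, 0.093 to 0.35 for STAT3, -0.015 to 0.16 for the hormone receptor list, -0.54 to -0.089 for small nucleolar RNAs, -1.60 to -0.87 for spliceosomal U RNAs, -0.016 to 0.23 for long noncoding RNAs and 0.18 to 0.40 for A549 markers. Of 106 named genes that passed with all libraries, 71 passed whichever library was left out, 28 were lost only without a WT B library and 7 without at least 1 WT A library (ADM, CCNB1, FOS, GCLM, HSP90AA1, MT-ND6 and TJP1).

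Genes that did not pass changed sign. Leaving out 1 library, the log2(fold change) ranged from -0.019 to 1.23 for HSPA5, -0.055 to 0.053 for NQO1, -0.39 to 0.52 for CDKN1A, -0.35 to 2.6e-05 for MDM2, -0.27 to 0.78 for HMGCS1, -0.30 to 0.24 for MKI67, -0.23 to 0.21 for EGR1, -0.43 to 0.25 for EREG, -0.92 to 0.23 for DKK1 and -1.28 to 0.068 for CXCL8. With upper-quartile factors MKI67 was at 0.027, EGR1 at 0.082 and EREG at 0.020. EGR1 was at 0.0098 with library totals, 0.0045 in the fit of 4 groups and 0.0043 without clone-named symbols.

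WT A and WT B share the replicate numbers 1 to 3, but same-numbered libraries did not deviate together (correlations over 15623 genes -0.01, 0.0023 and -0.06), so the number was not taken as a pairing. With the replicate number as a block 1864 genes were called and 2684 passed FDR < 0.1. For the KO pair no paired analysis was possible because the labels of MSTRG.4401.1 KO carry no replicate number. A floor of 3 counts is 0.0293 CPM in the deepest library and 0.0611 CPM in the shallowest, and differences below it were not detectable.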

Other observations

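Beyond the programs above, the symbols with the largest differences were mostly members of repeated families and pseudogenes. SPDYE1, of the Speedy/RINGO cyclin-dependent kinase activators, was at 7.3, 7.11 and 4.23 CPM in WT B and without a count in WT A, at least 127-fold lower against a floor of 3 counts in each WT A library, while its relative SPDYE2B had no more than 1 count in a WT B library and was at 7.93, 11.4 and 6.21 CPM in WT A. WASH7P, a pseudogene of a WASH complex subunit, was at 33, 27.1 and 27.6 CPM in WT B and without a count in WT A, at least 597-fold lower, and the keratin pseudogene KRT8P4 was at least 137-fold lower. MIR3648-2, at chr21:8986999-8987178, was without a count in WT B and at 2059.7, 2177 and 1116 CPM in WT A, at least 34792-fold higher. APOOL, a subunit of the mitochondrial MICOS complex at chrX:85003877-85093315, was at 57.1, 58.2 and 53.4 CPM in WT B and at 0.564, 0.469 and 0.45 CPM in WT A (-6.84, SE 0.17, adjusted p = 1.49e-06). Members of repeated families share sequence, so the value of 1 symbol is uncertain. APOOL overlaps SATL1 on the other strand. As the use of strand is not given, the value of APOOL is uncertain as well.

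Several genes of interest were close to the limit of detection or did not pass. HMOX1, heme oxygenase, was at 17.5, 11.6 and 15.5 CPM in WT B and at 21, 22.6 and 19.1 CPM in WT A (0.48, SE 0.17, adjusted p = 0.147). SCD, the stearoyl-CoA desaturase, was at 2209.7, 2159 and 2124 CPM and at 1367, 2871 and 1216 CPM, which overlapped. CXCL8, interleukin 8, was at 2.33, 3.38 and 2.81 CPM and at 4.27, 0.591 and 1.69 CPM, and CA9, a hypoxia-induced carbonic anhydrase, did not exceed 1.83 CPM in any of the 6 libraries. ISG15, an interferon-induced ubiquitin-like protein, was at 72.4, 73.8 and 71 CPM and at 66.8, 40 and 60.2 CPM (-0.38, adjusted p = 0.318), and IFIT1, an antiviral RNA-binding protein, was at 5.32, 6.59 and 5.22 CPM and at 4.3, 4.99 and 4.82 CPM (-0.29, adjusted p = 0.444).

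Other lists held single genes that passed. Of 22 STAT3 and cytokine receptor genes 5 rose and none fell, with PIM1, a kinase that STAT3 induces, from 17.9, 16.8 and 17.5 CPM to 32.6, 26.5 and 26 CPM (0.69, SE 0.14, adjusted p = 0.0199), but without 1B, 2B and 3B none, none and 1 of them passed. Of 37 autophagy and lysosome genes 3 rose and 3 fell (8.11% each, near the background shares of 5.56% and 6.71%), with ATG14, a subunit of the class III PI3-kinase complex, from 6.35, 10.4 and 5.26 CPM to 41.1, 44.8 and 37.9 CPM (2.47, SE 0.26, adjusted p = 0.000691). Of the 13 mitochondrially encoded genes 1 rose and 1 fell (7.69% each, also near the background). MT-CO1 rose (0.71, adjusted p = 0.0394) and MT-ND6, on the light strand, fell (-1.05, adjusted p = 0.0422).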
